A study of Mus musculus with 10 samples.

Results

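The 10 genes described here encode the proteins that read the cap of an mRNA and those that work beside them, either to start translation or to hold it back. They were taken by name as Eif4e, Eif4e2, Gigyf1, Gigyf2, Zfp598, Eif4a1, Eif4a2, Eif4g1, Eif4g2 and Pabpc1, by matching these symbols to the count table. They are 10 of the 51467 genes in the count table. All 10 passed the filter on low counts, as did 11683 genes in all. Their mRNA was measured by QuantSeq 3′-end sequencing in 10 libraries of mouse embryonic stem cells (ESCs).

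Wild-type (WT) cells were of the V6.5 line and gave 3 libraries. DGCR8 knockout (DGCR8 KO) cells, from a single line made earlier in the same laboratory, gave 3 libraries. They lack the RNA-binding partner of Drosha and so cannot make canonical miRNAs. DDX6 knockout (DDX6 KO) cells lack an RNA helicase that acts downstream of the miRNA effector complex, and 2 clones derived with CRISPR-Cas9 from V6.5 gave 2 libraries each. One clone carries an inserted nucleotide and the other a larger deletion, and both have an early stop codon. All cells grew in Knockout DMEM with fetal bovine serum, LIF and the inhibitor pair PD0325901 and CHIR99021 (2i).

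In textbook terms, translation of a capped mRNA begins when eIF4E binds the cap and the scaffold eIF4G joins it to the helicase eIF4A, together forming eIF4F. eIF4G also binds the poly(A)-binding protein, which sits on the tail. 4EHP, the product of Eif4e2, binds the cap as well but does not bind eIF4G, and GIGYF1 or GIGYF2 tethers it to chosen mRNAs, so that it competes with eIF4E and represses translation. ZNF598, encoded by Zfp598, marks collided ribosomes and is a further partner of the GIGYF proteins.

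The total count ran from 2131156 to 4745083 over the libraries. The 10 genes together took 0.642% to 0.954% of it. Dgcr8 stood at 20.6% of its WT level in DGCR8 KO cells, and Ddx6 at 16.2% in DDX6 KO cells, with 142 CPM in clone 1 and 32.4 CPM in clone 2 against 538 CPM in WT cells. CPM is a gene's count brought to a common library size, with TMM scaling. All 8 ESC markers examined exceeded 3 counts in at least 1 library of every group, and their summed level was 3650 to 4050 CPM in WT, 3240 to 3690 in DGCR8 KO and 3740 to 4050 in DDX6 KO libraries. Markers of other cells were lower. The 5 of primitive endoderm summed to 3.26 to 23.8 CPM and the 5 of feeder fibroblasts to 2.04 to 9.52, with Dcn at 0 in WT and DDX6 KO cells. Among the 4 trophoblast markers only Tfap2c passed the filter on low counts, and Hand1 had at most 3 counts in every library. Together the 4 summed to 62.4 to 119 CPM in WT, 133 to 184 in DGCR8 KO and 38.8 to 88.3 in DDX6 KO libraries, with Elf5 at 0 throughout. The 4 of neural progenitors summed to 54.3 to 85.9, 33.6 to 44.0 and 87.6 to 133 CPM in that order. What part such cells had in the results below was not tested. In bulk RNA, fewer cells of one kind and less RNA per cell cannot be told apart.

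In DGCR8 KO cells 5 of the 10 genes passed the test against WT (limma adjusted p-value under 0.05), 1 higher and 4 lower. Gigyf1 rose, and Pabpc1, Eif4g2, Eif4e and Eif4a1 fell. Over all genes tested 36.3% passed in this comparison, 19.9% higher and 16.5% lower. In DDX6 KO cells 4 of the 10 passed, against 34.5% of all genes, of which 17.9% were higher and 16.6% lower. Gigyf1 again rose, and Pabpc1, Eif4a1 and Eif4g1 fell. The median of the 10 log2 fold changes was -0.16 for DGCR8 KO and -0.19 for DDX6 KO, beside 0.004 and 0.02 over all genes. With a log2 fold change beyond 1 in size also required, 1 of the 10 was called in DGCR8 KO cells (14.7% of all genes) and 0 in DDX6 KO cells (11.2%), where 4 of the 10 had an unadjusted limma p under 0.05. The libraries of 6 of the 10 genes did not overlap between DGCR8 KO and WT, which held for 44.8% of all genes, and those of 4 did not overlap between DDX6 KO and WT (39.9%). Both comparisons share the WT libraries, so their values are given side by side only. None of the 10 genes lies on chromosome 6 or 8, whose genes had medians apart from the rest (0.59 for chromosome 6 in DDX6 KO cells and -0.45 for chromosome 8 in DGCR8 KO cells).

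**Figure D1:**
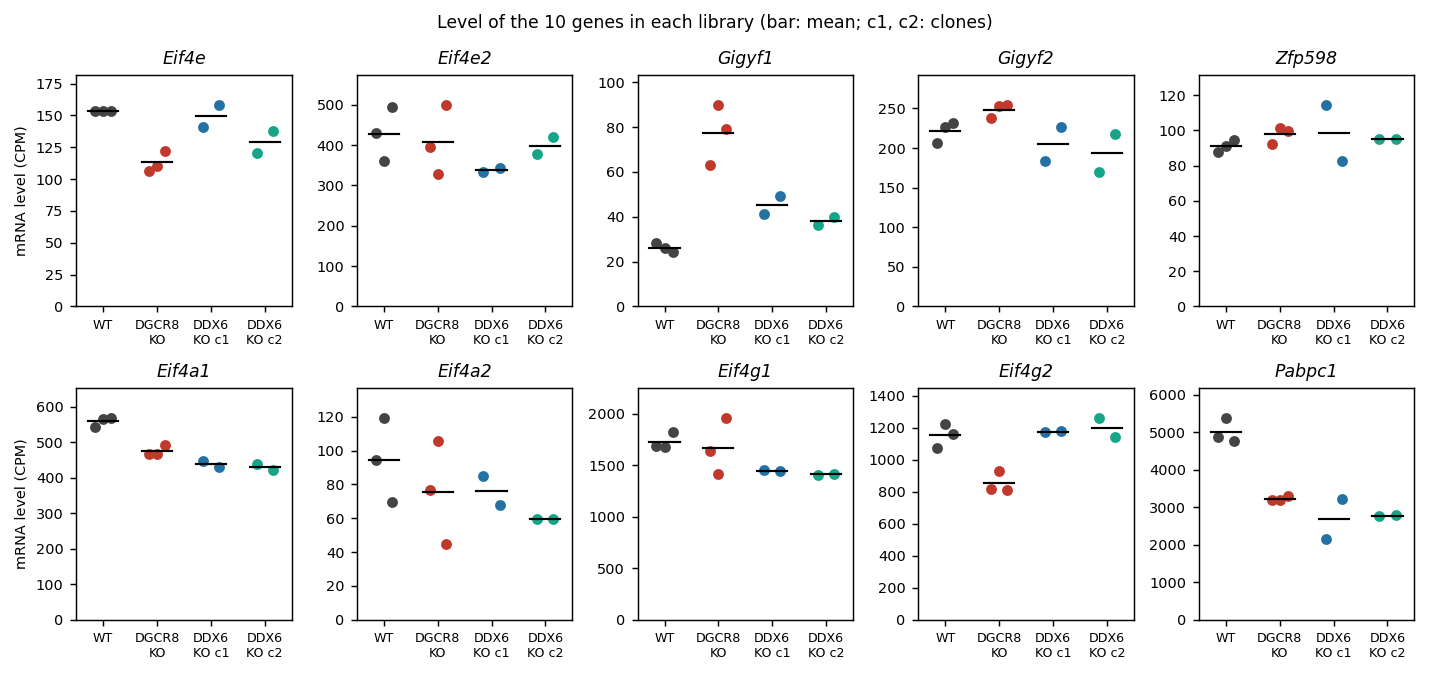
mRNA level (CPM, linear axes from 0) of each of the 10 genes in every library of WT, DGCR8 KO and both DDX6 KO clones. Points are libraries and bars are group means. Gigyf1 is above all WT libraries in every knockout library, and Pabpc1 and Eif4a1 are below all WT libraries in every knockout library.

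Gigyf1 had the largest change of the 10. It encodes one of the adaptors that bring 4EHP to mRNAs (ENSMUSG00000029714, GRCm38 chr5:137518878-137527935, plus strand). WT libraries held 28.3, 25.9 and 24.1 CPM, DGCR8 KO libraries 63.1, 89.9 and 79.0, clone 1 of DDX6 KO 41.4 and 49.4, and clone 2 36.2 and 40.0. The order was WT, then DDX6 KO, then DGCR8 KO, with no overlap between any of the 3 genotypes. In DGCR8 KO cells the fold was 2.96 (log2 1.57, SE 0.17, limma adjusted p = 1.82e-06), and in DDX6 KO cells it was 1.61 (log2 0.69, SE 0.18, adjusted p = 0.00547). Clone 1 alone passed against WT (log2 0.82, adjusted p = 0.00790), whereas clone 2 alone missed the threshold (log2 0.57, adjusted p = 0.0506). Set against each other, DGCR8 KO cells held 1.84 times as much Gigyf1 mRNA as DDX6 KO cells (log2 0.88, SE 0.15, adjusted p = 0.000107). With 59 to 108 counts in WT libraries Gigyf1 is the most thinly covered of the 10, and its call for DGCR8 KO held under all 20 alternatives run.

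Gigyf2, the paralog of Gigyf1 (ENSMUSG00000048000, chr1:87327003-87450796, plus strand), stood at 207, 227 and 231 CPM in WT libraries, at 238, 253 and 255 in DGCR8 KO libraries and at 183, 226, 170 and 217 in DDX6 KO libraries. The DGCR8 KO libraries were just above the WT ones without overlap, and the DDX6 KO libraries overlapped with WT. Neither difference from WT passed (log2 0.16 with a 95% interval from -0.08 to 0.40, and -0.17 with an interval from -0.39 to 0.06). Against DDX6 KO the DGCR8 KO level was 1.25-fold higher (log2 0.32, SE 0.11, limma adjusted p = 0.0210). That call was lost without DGCR8 KO replicate 3 (adjusted p = 0.0529), DDX6 KO replicate 1 (0.0717) or DDX6 KO replicate 3 (0.0959), with clone 1 alone (0.109), with no filter (0.0525) and with TMM factors from outside chromosomes 6 and 8 (0.0516). With libraries scaled by total counts the difference was 0.195 (adjusted p = 0.141).

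Zfp598, the ubiquitin ligase of collided ribosomes (ENSMUSG00000041130, chr17:24669752-24682015, plus strand), had 87.9, 91.0 and 94.5 CPM in WT, 92.2, 102 and 99.8 in DGCR8 KO and 115, 82.4, 95 and 95.2 in DDX6 KO libraries. The 3 genotypes overlapped. Its log2 differences from WT were 0.09 (95% interval -0.17 to 0.36) and 0.07 (-0.18 to 0.32), which leaves room for a difference within those bounds.

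The mRNAs of both cap-binding proteins among these genes were measured. Eif4e (ENSMUSG00000028156, chr3:138526179-138559696, plus strand) had 153, 154 and 154 CPM in WT, 107, 111 and 122 CPM in DGCR8 KO, 141 and 158 CPM in clone 1, and 120 and 137 CPM in clone 2. Every DGCR8 KO library was below every WT library, while the DDX6 KO libraries reached both groups. In DGCR8 KO cells Eif4e fell, to a mean of 73.6% of WT (log2 -0.45, SE 0.12, limma adjusted p = 0.00582), a call kept under all 20 alternatives. The difference of DDX6 KO from WT did not pass (log2 -0.15, 95% interval -0.37 to 0.08). DGCR8 KO was below DDX6 KO (log2 -0.30, SE 0.11, adjusted p = 0.0358), and this call was lost when DGCR8 KO replicate 1 (adjusted p = 0.123) or 2 (0.0757) or DDX6 KO replicate 1 (0.0540), 2 (0.104) or 4 (0.0529) was left out, with no filter (0.0561) and with clone 2 alone (0.253).

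Eif4e2, which encodes the repressive cap-binding protein 4EHP (ENSMUSG00000026254, chr1:87213914-87240488, plus strand), had 431, 360 and 494 CPM in WT, 395, 330 and 500 in DGCR8 KO and 333, 344, 378 and 419 in DDX6 KO libraries. All groups overlapped and no comparison passed. The 95% intervals of its log2 difference from WT were -0.39 to 0.21 for DGCR8 KO and -0.49 to 0.06 for DDX6 KO. WT replicate 3 and DGCR8 KO replicate 3 were the highest libraries of their groups for Eif4e2, Eif4g1 was highest in the same pair, and Eif4a2 was lowest in both.

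The mature miRNAs that DGCR8 KO cells cannot make include the miR-290 family, which is abundant in ESCs, and the miR-302 family, which is known from primed pluripotent cells and shares its seed, the bases that pair with targets. They are shown because members of the 10 carry matches to that seed in their 3′ UTRs. The 5 RefSeq sequences are given 5′ to 3′ with GRCm38.p6 coordinates, on the plus strand, and the seed (bases 2 to 8) in capitals.
miR-291a-3p, chr7:3218968-3218989: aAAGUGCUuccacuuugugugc
miR-294-3p, chr7:3220691-3220712: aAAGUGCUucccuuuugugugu
miR-295-3p, chr7:3220815-3220837: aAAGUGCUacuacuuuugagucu
miR-302b-3p, chr3:127545275-127545297: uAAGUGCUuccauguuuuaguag
miR-302d-3p, chr3:127545665-127545687: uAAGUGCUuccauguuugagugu

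A match was AGCACTT or GCACTTA (7 bases) or AGCACTTA (8 bases, which contains both), read on the strand of the transcript only. In the main annotated coding transcript, 3 of the 10 genes held such a match and 7 did not, against 2194 of the 10959 tested genes with an annotated 3′ UTR. The 3 have 3′ UTRs of 2231, 4192 and 4942 bases, beside a median of 1062 over those 10959 genes. The counts were not matched for length. The 4 sites are printed with the match in capitals, in GRCm38 coordinates.
Gigyf1, chr5:137525830-137525859, plus strand: gcagggtccccAGCACTTgttacaaaccac
Gigyf1, chr5:137526194-137526223, plus strand: ttccctgaggctGCACTTAccctgctgccc
Eif4e, chr3:138557721-138557750, plus strand: ttaataactacAGCACTTAcataataagtt
Eif4g2, chr7:111068447-111068476, minus strand: aagaggtttccAGCACTTgtctctctctgc

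The direction was not shared among these 3 genes in DGCR8 KO cells: Gigyf1, with 2 matches, rose, and Eif4e and Eif4g2, with 1 match each, fell. Gigyf1 has 1 annotated coding transcript, with a 3′ UTR of 2231 bases, and its matches lie at bases 138 and 502 of it. Each position, here and below, is that of the first base of GCACTT, which all matches hold. The match of Eif4e lies at base 2229 of a 3′ UTR of 4192 bases, and 1 of its 4 coding transcripts holds it. That of Eif4g2 lies at base 4228 of 4942, and 1 of its 2 coding transcripts holds it, the other having a 3′ UTR of 760 bases. Outside the main transcripts, 1 of 4 coding transcripts of Eif4a2 and 2 of 7 of Eif4e2 also hold a match. The count table gives 1 value per gene and does not say which 3′ end the reads came from. A match is a run of letters and was not tested as a site.

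The helicase that unwinds the 5′ UTR is encoded by a pair of paralogs. Eif4a1 (ENSMUSG00000059796, chr11:69666936-69672317, minus strand) stood at 545, 566 and 569 CPM in WT, at 467, 469 and 493 in DGCR8 KO, at 448 and 432 in clone 1 and at 438 and 421 in clone 2. No genotype overlapped with another, and DDX6 KO was lowest. In DDX6 KO cells Eif4a1 fell to a mean of 77.7% of WT (log2 -0.37, SE 0.08, limma adjusted p = 0.00179), and each clone passed alone (adjusted p = 0.0171 for clone 1 and 0.00954 for clone 2). The decrease in DGCR8 KO cells (log2 -0.24, SE 0.09, adjusted p = 0.0367), was lost without WT replicate 1 (adjusted p = 0.0506), 2 (0.0875) or 3 (0.0986) and without DGCR8 KO replicate 1 (0.0990) or 2 (0.0733), with values from -0.26 to -0.22 in those fits. The knockouts did not pass against each other (log2 0.13, 95% interval -0.04 to 0.30).

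Eif4a2 (ENSMUSG00000022884, chr16:23107444-23114117, plus strand) had the widest spread within each group, as SD relative to the mean, of the 10 genes. It stood at 94.6, 119 and 69.6 CPM in WT, at 76.5, 106 and 44.8 in DGCR8 KO and at 85.0, 67.8, 59.8 and 59.3 in DDX6 KO libraries, with overlap between all groups. Neither knockout passed against WT (log2 -0.32, 95% interval -0.82 to 0.17, and log2 -0.44, interval -0.90 to 0.03). Libraries of the same number varied together in WT and DGCR8 KO cells, and in a fit of those 6 libraries with the number as a block Eif4a2 was lower in DGCR8 KO cells (log2 -0.36, limma adjusted p = 0.0119). Without WT replicate 3 the decrease in DDX6 KO cells passed (log2 -0.68, adjusted p = 0.0410). Eif4a2 shares 175 exon bases with Rfc4 on the other strand, and the counting used strand.

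Of the scaffold genes, Eif4g1 passed in DDX6 KO cells alone and Eif4g2 in DGCR8 KO cells alone, and their direct tests between the knockouts are given with each. Eif4g1 encodes the main scaffold of eIF4F (ENSMUSG00000045983, chr16:20672723-20692884, plus strand), at 1684, 1673 and 1818 CPM in WT, 1641, 1414 and 1957 in DGCR8 KO, 1456 and 1439 in clone 1 and 1409 and 1418 in clone 2. All DDX6 KO libraries were below all WT libraries, and the DGCR8 KO libraries spanned both. In DDX6 KO cells Eif4g1 fell to a mean of 82.9% of WT (log2 -0.27, SE 0.09, limma adjusted p = 0.0271), and in DGCR8 KO cells it did not pass (log2 -0.07, 95% interval -0.27 to 0.14). The direct difference did not pass (log2 0.21, SE 0.09, adjusted p = 0.0741). The decrease had an adjusted p of 0.112 with clone 1 and 0.0711 with clone 2 alone, and of 0.127, 0.0635 and 0.0526 without WT replicate 3, DDX6 KO replicate 3 and DDX6 KO replicate 4. With libraries scaled by their total counts it was -0.15 (adjusted p = 0.167).

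Eif4g2 encodes a relative of eIF4G that does not bind eIF4E (ENSMUSG00000005610, chr7:111067750-111083030, minus strand). Its level was 1072, 1223 and 1163 CPM in WT, 816, 928 and 812 in DGCR8 KO, 1171 and 1180 in clone 1 and 1261 and 1140 in clone 2. The DGCR8 KO libraries were below all 7 others, which overlapped among themselves. Eif4g2 fell to a mean of 73.9% of WT in DGCR8 KO cells (log2 -0.44, SE 0.09, limma adjusted p = 0.000769) and did not pass in DDX6 KO cells (log2 0.04, 95% interval -0.13 to 0.21). The direct difference between the knockouts passed (log2 -0.48, SE 0.08, adjusted p = 0.000148) and did so under all 21 alternatives.

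Pabpc1, the main cytoplasmic poly(A)-binding protein (ENSMUSG00000022283, chr15:36595661-36608973, minus strand), fell in both knockouts. Its level was 4868, 5376 and 4755 CPM in WT, 3187, 3185 and 3307 in DGCR8 KO, 2159 and 3211 in clone 1 and 2753 and 2785 in clone 2. Every knockout library was below every WT library, and the knockouts overlapped. In DGCR8 KO cells its mean was 64.5% of WT (log2 -0.63, SE 0.10, limma adjusted p = 0.000110). For DDX6 KO the log2 difference was -0.88 (SE 0.10, adjusted p = 2.59e-06), and each clone passed alone at -0.92 and -0.85. Both calls were kept in every alternative. The level was 1.19-fold higher in DGCR8 KO than in DDX6 KO cells (adjusted p = 0.0453), a call lost in 17 of 21 alternatives, and without DDX6 KO replicate 1, the lowest library, the log2 difference was 0.14 (adjusted p = 0.197) in place of 0.25. Leaving out any other library but WT replicate 2 and DDX6 KO replicate 2 gave adjusted p-values from 0.0503 to 0.0968.

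**Figure D2:**
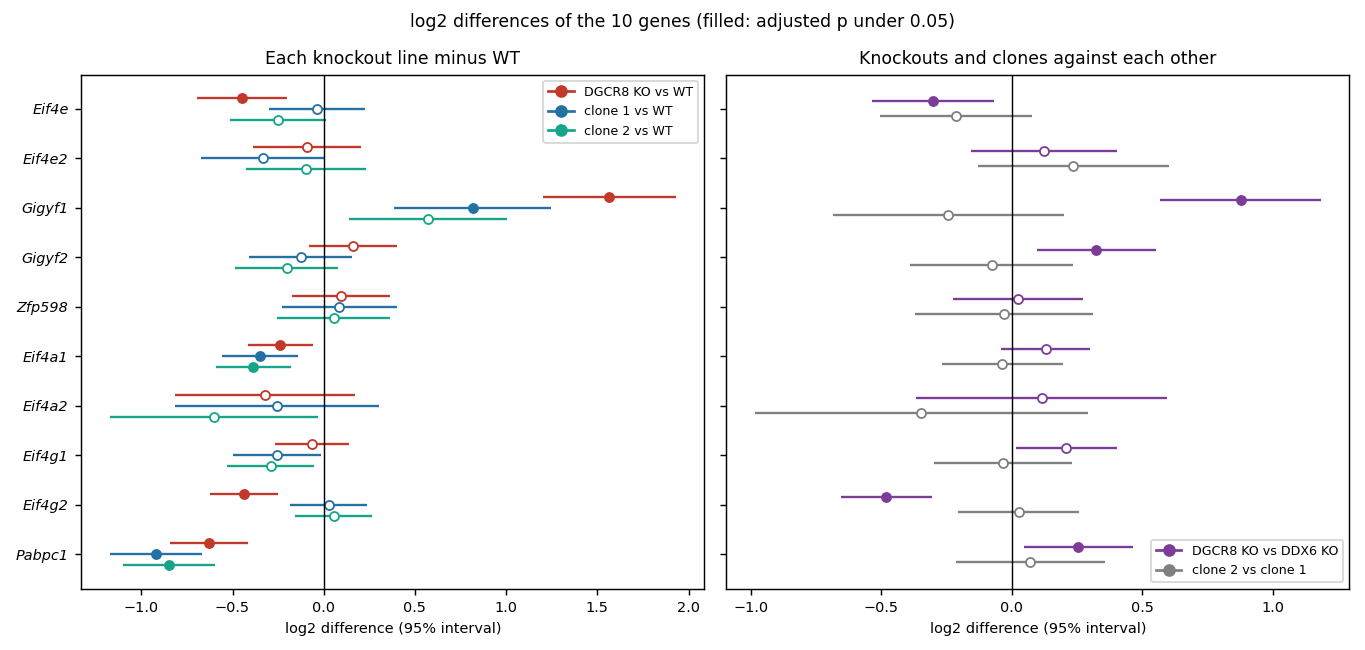
log2 differences of the 10 genes with their 95% intervals (limma), for DGCR8 KO and each DDX6 KO clone against WT (left) and for the knockouts and the clones against each other (right). Filled points have an adjusted p under 0.05. Gigyf1 is farthest right and Pabpc1 is left of 0 in all 3 knockout lines, and no interval of clone 2 against clone 1 excludes 0.

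Compared directly, DGCR8 KO differed from DDX6 KO in 5 of the 10 genes (44.0% of all genes passed, 23.0% higher and 21.0% lower in DGCR8 KO). Gigyf1, Gigyf2 and Pabpc1 were higher in DGCR8 KO cells, and Eif4g2 and Eif4e were lower. Between the clones, 0 of the 10 genes passed (limma), none had an unadjusted p under 0.05 (284 of all genes did), and the count was also 0 by the edgeR quasi-likelihood test. Over all genes 5, or 0.0428%, passed that comparison. Against WT, 3 of the 10 passed in clone 1 (23.8% of all genes) and 2 in clone 2 (24.6%), Pabpc1 and Eif4a1 in both. With 2 libraries a clone the bounds are wide, and for Eif4a2 the 95% interval of the log2 difference between the clones ran from -0.99 to 0.29.

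A ratio of paralogs within a library does not depend on how libraries are scaled, so the pairs were also compared that way, as log2 of the ratio of counts plus 0.5. Gigyf1 had 0.138, 0.115 and 0.104 counts for each Gigyf2 count in WT, 0.266, 0.356 and 0.311 in DGCR8 KO and 0.227, 0.219, 0.214 and 0.185 in DDX6 KO libraries. Neither knockout overlapped with WT, and the ratio was 2.61-fold higher in DGCR8 KO (log2 difference 1.38, two-sided exact permutation p = 0.1, adjusted over 8 tests 0.267) and 1.78-fold higher in DDX6 KO cells (0.83, p = 0.0571, adjusted 0.228). Those are the smallest p-values that 3 against 3 and 4 against 3 libraries allow, so no ratio could pass.

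The ratio of Eif4g2 to Eif4g1 stood at 0.637, 0.731 and 0.640 in WT, at 0.498, 0.656 and 0.415 in DGCR8 KO and at 0.804, 0.820, 0.895 and 0.804 in DDX6 KO libraries. DDX6 KO was above WT without overlap (1.24-fold, exact p = 0.0571, adjusted 0.228), and DGCR8 KO overlapped with WT at 0.769-fold (exact p = 0.300, adjusted 0.480). For Eif4e2 to Eif4e the fold was 1.29 in DGCR8 KO (exact p = 0.200, adjusted 0.400) and 0.958 in DDX6 KO cells (exact p = 0.800, adjusted 0.800), and for Eif4a2 to Eif4a1 it was 0.910 and 0.939 (exact p = 0.800 for both, adjusted 0.800), with overlap of the libraries in all 4 comparisons. QuantSeq reads 1 end per transcript, and these ratios were used to compare libraries, not to rank genes by level.

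**Figure D3:**
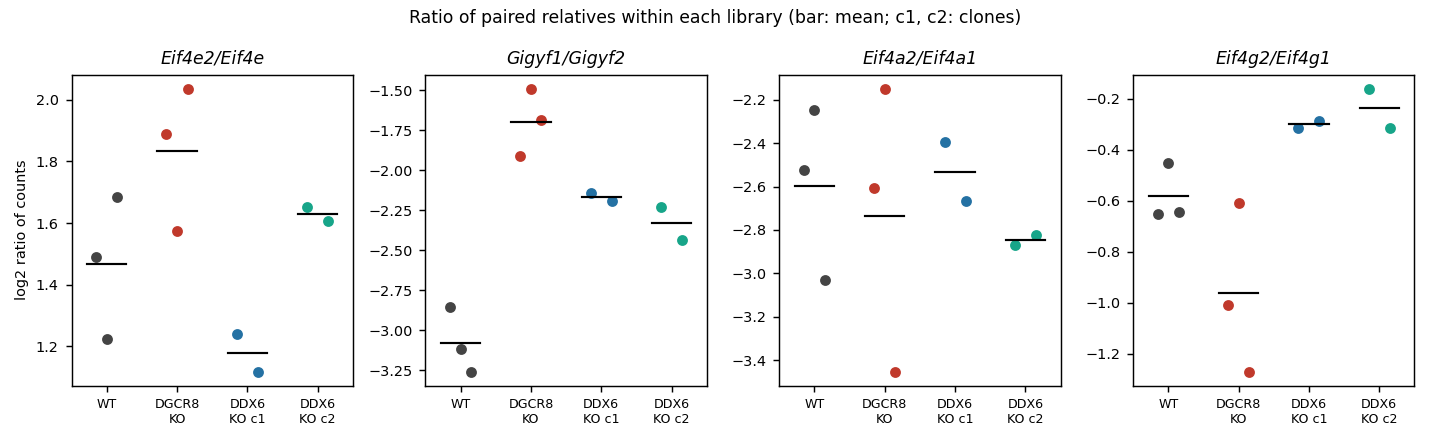
log2 ratio of the counts of each pair of relatives within every library of WT, DGCR8 KO and both DDX6 KO clones. Points are libraries and bars are means. Gigyf1/Gigyf2 is above WT in all 7 knockout libraries, Eif4g2/Eif4g1 is above WT in all 4 DDX6 KO libraries, and the other pairs overlap.

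The genes most like Gigyf1, Pabpc1 and Eif4g2 over the 10 libraries were found by Pearson correlation of log2 CPM, a description in which the groups set most of the variation. For Gigyf1 they were Arid4a (r = 0.982), with 102 ± 6.59 CPM in WT, 239 ± 17.5 for DGCR8 KO and 149 ± 7.24 for DDX6 KO (SD, n = 3, 3 and 4), and Tcf7l2 (r = 0.978). Arid4a encodes a chromatin protein and Tcf7l2 a transcription factor of the Wnt pathway. For Pabpc1 they were Rpl22 (r = 0.982), a ribosomal protein gene with 1286 ± 17.5, 959 ± 41.3 and 869 ± 102 CPM in the same order, and Acaa2 (r = 0.962), a mitochondrial thiolase. For Eif4g2 they were Fam213a and Pimreg (both r = 0.98), the latter a gene that stood at 46.7 ± 3.85, 13.9 ± 4.10 and 46.2 ± 4.49 CPM.

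Around these 10 genes, 7 lists of translation genes were described. They hold 71 genes, 68 of them tested, and 27 passed for DGCR8 KO (8 higher, 19 lower) and 29 for DDX6 KO (4 higher, 25 lower), or 39.7% and 42.6%, against 36.3% and 34.5% of all genes. The share for DGCR8 KO is near that of all genes. By direction, 19.9% of all genes were higher and 16.5% lower for DGCR8 KO, and 17.9% and 16.6% for DDX6 KO. The medians of the log2 fold changes were -0.18 and -0.25, beside 0.004 and 0.02 over all genes. Without WT replicate 3 the DGCR8 KO counts were 4 higher and 17 lower. With the library number as a block in WT and DGCR8 KO libraries alone they were 10 higher and 26 lower, in a fit where 2610 of 10944 genes were higher and 2352 lower.

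Of 6 eIF4E-binding repressors, 1 rose and 2 fell in DGCR8 KO cells and 3 fell in DDX6 KO cells. Over all genes 36.3% passed for DGCR8 KO (19.9% higher, 16.5% lower) and 34.5% for DDX6 KO (17.9% higher, 16.6% lower). Eif4ebp1, encoding the 4E-BP1 that mTOR switches off, stood at 285, 276 and 306 CPM in WT, 129, 111 and 115 in DGCR8 KO and 222, 205, 211 and 234 in DDX6 KO libraries. Neither knockout overlapped with WT, and DGCR8 KO was lowest (log2 -1.29, SE 0.11, limma adjusted p = 6.80e-08, against -0.41 in DDX6 KO). It lies on chromosome 8, whose genes had a median of -0.45 in DGCR8 KO cells. Eif4ebp2 fell by 0.58 and 0.77 on the log2 scale in DGCR8 KO and DDX6 KO cells, Eif4ebp3 fell by 0.51 in DDX6 KO cells, and Cyfip1, which links eIF4E to FMRP, rose by 0.36 in DGCR8 KO cells. The Cyfip1 call was lost without WT replicate 1 (limma adjusted p = 0.0551), WT replicate 3 (0.0983) or DGCR8 KO replicate 2 (0.0851). That of Eif4ebp3 was lost in 9 of 21 alternatives, among them the fits without WT replicate 2 (0.0562), WT replicate 3 (0.102), DDX6 KO replicate 2 (0.0604) or DDX6 KO replicate 3 (0.0777). Eif4enif1, whose product 4E-T binds both eIF4E and DDX6, passed in neither (log2 -0.10 and 0.23). Among cap-binding relatives, the nuclear cap-binding subunits Ncbp1 and Ncbp2 fell in DGCR8 KO cells (log2 -0.70 and -0.35), and Ncbp2 fell in DDX6 KO cells (-0.65). Of 6 genes of the eIF4E kinases and the mTOR arm, 3 rose in DGCR8 KO cells (Rps6kb2 0.69, Rps6kb1 0.52 and Mknk2 0.43) and 1 in DDX6 KO cells (Rps6kb1 0.54), beside 19.9% and 17.9% of all genes. The count of 3 was 1 without WT replicate 3 and without a filter, and 2 without any other single WT or DGCR8 KO library or without DDX6 KO replicate 1. Mknk2 lost its call in 9 of 20 alternatives (limma adjusted p up to 0.139) and Rps6kb2 in 3 (up to 0.110), while Rps6kb1 kept it in all 20 and lost that for DDX6 KO with clone 1 alone (0.0538). Mtor itself passed in neither (-0.03 and -0.10).

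Of 7 eIF4F helpers and relatives, 3 passed in each knockout (42.9%), 1 higher and 2 lower. Over all genes 36.3% passed for DGCR8 KO and 34.5% for DDX6 KO. Eif4g3, which encodes another eIF4G scaffold, fell in DGCR8 KO and rose in DDX6 KO cells. It stood at 26.9, 33.4 and 25.9 CPM in WT, 13.2, 15.6 and 14.7 in DGCR8 KO and 59.0, 65.0, 58.8 and 67.5 in DDX6 KO libraries. The genotypes did not overlap, with log2 fold changes of -0.97 (SE 0.20, limma adjusted p = 0.000863) and 1.139 (SE 0.14, adjusted p = 1.25e-05) and a direct difference of -2.11 (adjusted p = 5.06e-08). Ddx3x, an RNA helicase of initiation, rose in DGCR8 KO cells from 926 ± 74.7 to 1802 ± 96.0 CPM (SD, n = 3 and 3). Its DDX6 KO level was 875 ± 94.1 CPM (SD, n = 4), and the direct log2 difference was 1.05 (adjusted p = 7.02e-08). Eif4b, the cofactor of eIF4A, and Eif4a3, the helicase of the exon junction complex, fell in DDX6 KO cells (-0.74 and -0.51), Dhx29 fell in DGCR8 KO cells (-0.34, lost without WT replicate 1 or 2 or DGCR8 KO replicate 1 or 2, with limma adjusted p-values of 0.0652, 0.0774, 0.0618 and 0.120), and Eif4h passed in neither (-0.06 in both).

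Among genes of poly(A) binding, 3 of 7 passed for DGCR8 KO (2 higher, 1 lower) and 0 of 7 for DDX6 KO (limma). Over all genes 36.3% and 34.5% passed. For DDX6 KO 1 of the 7 had an unadjusted limma p under 0.05, as did 5176 of the 11683 genes tested, and edgeR also called 0 of the 7. Without DDX6 KO replicate 2, 1 passed for DDX6 KO. With the block in WT and DGCR8 KO libraries alone 5 passed, Paip2 and Paip2b being the further ones, both lower. That fit called 2610 of 10944 genes higher and 2352 lower. Pabpc4, a cytoplasmic relative of Pabpc1, fell in DGCR8 KO cells (log2 -1.09, SE 0.19, limma adjusted p = 0.000222) and had -0.36 (adjusted p = 0.102) in DDX6 KO cells. Paip1, which joins the tail to eIF4A, rose by 0.68 in DGCR8 KO cells. Larp4b passed there as well (log2 0.30, limma adjusted p = 0.0414), but its libraries overlapped with WT and the call was lost in 13 of 20 alternatives, among them the fits without any single WT library (adjusted p from 0.0612 to 0.111), without DGCR8 KO replicate 1 (0.140) or 2 (0.145), and without DDX6 KO replicate 1 (0.0588), 2 (0.0503) or 3 (0.0621). The genes of stalled-ribosome surveillance passed the test for 4 of 12 in each knockout, or 33.3%, 1 higher and 3 lower, which is no more than the 36.3% and 34.5% of all genes. Pelo, which splits stalled ribosomes, fell by 0.84 in DGCR8 KO cells, and so did Trip4 by 0.77 and Rps20 by 0.44, the last of these lost without WT replicate 3 (limma adjusted p = 0.0541). With the block in WT and DGCR8 KO libraries alone 6 passed, Rack1 and Rps10 being the further ones, both lower. Of the 10944 genes in that fit 2610 were higher and 2352 lower. In DDX6 KO cells Rack1, a scaffold on the small ribosomal subunit, fell by 0.69, and Rps10 and Rps20, whose proteins ZNF598 marks, both fell by 0.67. Ascc3, a helicase that disassembles collided ribosomes, rose in both (0.61 and 0.56).

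The list of other initiation factors was mostly lower in DDX6 KO cells, where 17 of 28 passed (60.7%), 1 higher and 16 lower, against 34.5% of all genes, 17.9% higher and 16.6% lower. The median log2 fold change was -0.43, beside 0.02 over all genes. In DGCR8 KO cells 9 passed (32.1%, against 36.3% of all genes), 0 higher and 9 lower, where 19.9% of all genes were higher and 16.5% lower. The median there was -0.23, beside 0.004. With the block in WT and DGCR8 KO libraries alone 1 was higher (Eif3l) and 12 were lower (2610 and 2352 of 10944 genes in that fit). Without DGCR8 KO replicate 2 the counts were 1 and 8. Eif2b5, the catalytic subunit of the exchange factor eIF2B, stood at 827, 775 and 971 CPM in WT, 848, 613 and 917 in DGCR8 KO and 294, 340, 297 and 312 in DDX6 KO libraries. The DDX6 KO libraries were below all others (log2 -1.47, SE 0.12, limma adjusted p = 1.71e-07). Eif2s2, the β subunit of eIF2, fell in both (-0.63 for DGCR8 KO and -1.21 for DDX6 KO), and Eif2b4 and Eif3d fell in DDX6 KO cells (-0.77 and -0.72). The 14 genes of eIF3 subunits are a split of the list made after its values were seen. Of them, 10 fell and 4 did not pass in DDX6 KO cells, where 16.6% of all genes fell. In DGCR8 KO cells, where 16.5% of all genes fell, 10 did not pass and 4 fell. The latter 4 were 2 without WT replicate 2 or DGCR8 KO replicate 1, and 6 lower and 1 higher with the block. In DGCR8 KO cells the largest decreases of the list were those of Eif1b (-1.08), Eif2b1 (-0.67), Eif3j2 (-0.64) and Eif2s2, and without DGCR8 KO replicate 1 the count of 9 was 5 and Eif2b1 did not pass (limma adjusted p = 0.0586). Eif5b, which joins the ribosomal subunits, was the 1 higher gene for DDX6 KO (log2 0.23, limma adjusted p = 0.0432), a call lost in 11 of 21 alternatives. These include edgeR, DESeq2, each clone alone and the fits without WT replicate 1 (0.0784), 2 (0.123) or 3 (0.116) or DDX6 KO replicate 2 (0.0702) or 4 (0.116).

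**Figure D4:**
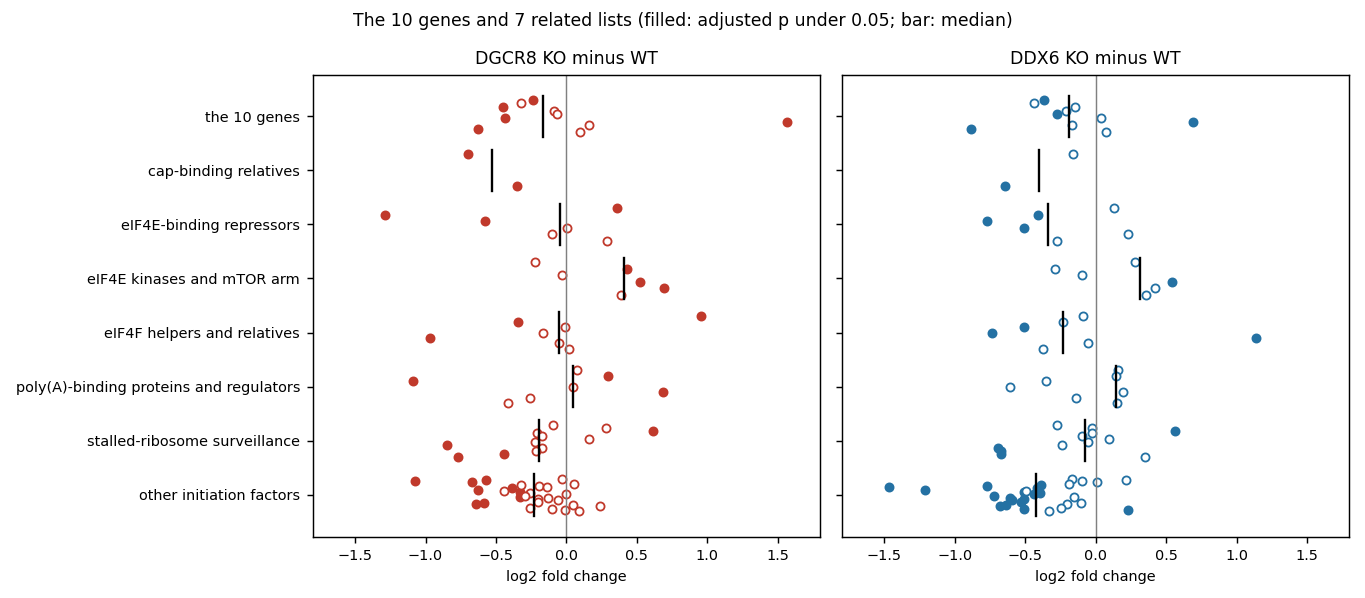
log2 fold change against WT of the 10 genes and of the tested genes of 7 related lists, in DGCR8 KO (left) and DDX6 KO cells (right). Points are genes, filled where the adjusted p is under 0.05, and bars are medians. The list of other initiation factors lies mostly left of 0 in DDX6 KO cells, with a median of -0.43.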

How the data were processed

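QuantSeq 3′ FWD libraries, single-end and 50 bases long, were used as the counts the authors deposited. Per the file headers and the study's methods, reads were trimmed (cutadapt 1.14), aligned to mm10 (STAR 2.5.3a, unique reads only) and counted per gene on the sense strand (featureCounts 1.5.3, Gencode M14 without rRNA genes, with 92 spike-ins). The counts are whole numbers and were not normalised. Kit primers start at poly(A) tails, so counts follow transcript 3′ ends and are not divided by length. No molecular identifiers are stated, so reads are not counted as separate molecules. The standard errors and intervals come from the spread between libraries. No amino acid sequences were used.

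Of 51467 genes, 51274 were paired with a symbol through the GRCm38 annotation. The tests took the 11683 genes, of 24468 with a count, that reached 3 CPM in 3 or more libraries, with TMM factors (edgeR 4.0.16) and limma-voom (limma 3.58.1, R 4.3.3) in 1 model of all 10 libraries, two-sided and adjusted by Benjamini-Hochberg over all genes. In simulated counts of 11683 genes, 100 well-covered genes were changed by log2 1 in size and 100 by 0.6. The DGCR8 KO test against WT recovered 84% and 34% of them and made 2 false calls. In the real data 36.3% of genes passed, far more than were changed there. The simulation therefore does not give the recovery or the number of false calls of the real test. A second fit gave each clone its own group. Groups came from the titles. Whether libraries of a group were separate cultures is not stated, so p-values measure only the spread between them, which may be technical. Same-numbered WT and DGCR8 KO libraries deviated together (r = 0.145, 0.267 and 0.285), a pairing read from the data. For same-numbered WT and DDX6 KO libraries r ran from 0.011 to 0.162, and for differently numbered ones from -0.162 to 0.159. Paralog ratios were tested by exact permutation (scipy 1.17.1). Alternatives were other scalings, no filter and a filter of 10 CPM, edgeR, DESeq2 1.42.0, limma-trend, a block, single clones and leaving out each library. The WT and DGCR8 KO fit with a block and the alternatives for the lists and their genes were added after seeing the data.

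The members and the lists were chosen with earlier results of these data known. Named were all 10 members, the targeted genes, up to 4 genes of each list per knockout with the largest change among those with an adjusted p under 0.05 and up to 3 others, and the 2 genes most correlated with each of the 3 members of smallest adjusted p, predicted genes and pseudogenes left out.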

Additional observations from a re-analysis of the deposited data

Results flagged for a closer look

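The DGCR8 KO and DDX6 KO effects differed by the direct contrast of the fit (limma adjusted p under 0.05) for 5 of the 10 genes. Over all genes 44.0% passed that contrast. The log2 difference of DGCR8 KO from DDX6 KO was 0.88 for Gigyf1, -0.48 for Eif4g2, 0.32 for Gigyf2, -0.30 for Eif4e and 0.25 for Pabpc1. Gigyf1 and Eif4g2 passed in all 21 alternatives, Gigyf2 and Eif4e in 14 each, and Pabpc1 in 4. No DDX6 KO library stood apart from the other 3 by Dixon's criterion in any of 14 sets of values, the 10 genes and the 4 ratios.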

How the results depend on the processing

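The number of the 10 genes passing was 5 in DGCR8 KO (36.3% of all genes), 4 in DDX6 KO (34.5%) and 5 between the knockouts (44.0%). Between the knockouts it was 3 with total counts, with TMM factors from outside chromosomes 6 and 8, without a filter, and with clone 1 or clone 2 alone. Of all 11683 genes, 2374 were higher and 2783 lower with those TMM factors, 2041 and 2016 with clone 1, and 2054 and 1920 with clone 2. Without a filter they were 2457 and 2636 of 24468 genes. Over the fits without 1 library the count between the knockouts ran from 2 to 5. With clone 2 alone 2 passed against WT (24.6% of all genes). Requiring a log2 fold change beyond 1 left 1 in DGCR8 KO (14.7% of all genes), 0 in DDX6 KO (11.2%) and 0 between the knockouts. The count ran from 4 to 5 in DGCR8 KO, from 3 to 4 in DDX6 KO and stayed at 0 between the clones over fits without 1 library. Total counts moved the median of all genes from 0.02 to 0.15 in DDX6 KO (2822 higher and 1356 lower genes, in place of 2088 and 1944) and to -0.13 between the knockouts (2037 and 3210, in place of 2688 and 2456).

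Values that did not pass the test changed sign as follows. Between the knockouts, total counts gave -0.005 for Eif4e2, -0.017 for Eif4a2 and -0.105 for Zfp598, TMM without chromosomes 6 and 8 gave -0.035 and the filter of 10 CPM -0.003 for Zfp598, and clone 1 alone gave -0.066 for Eif4a2. Over fits without 1 library, the values ran from -0.023 to 0.269 for Eif4e2, from -0.154 to 0.424 for Eif4a2 and from -0.052 to 0.090 for Zfp598. In DGCR8 KO against WT they ran from -0.238 to 0.054 for Eif4e2 and from -0.178 to 0.050 for Eif4g1, and in DDX6 KO from -0.008 to 0.080 for Eif4g2 and from -0.006 to 0.145 for Zfp598. The difference in Eif4a2/Eif4a1 ran from -0.430 to 0.222 in DGCR8 KO and from -0.305 to 0.087 in DDX6 KO without 1 library, and was 0.067 with clone 1 alone. That in Eif4e2/Eif4e in DDX6 KO ran from -0.182 to 0.047 and was 0.163 with clone 2 alone. The causes were not tested.

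With the replicate block over all 10 libraries, 5, 4 and 6 genes passed. Of all 11683 genes, that fit called 2557 higher and 2203 lower in DGCR8 KO and 1860 and 1867 in DDX6 KO. Between the knockouts it called 2831 and 2515, or 5346 in all. In it Eif4a2 passed in DDX6 KO (log2 -0.74) and between the knockouts, and Eif4g1 did not pass in DDX6 KO (-0.19). Eif4e2 stood at -0.003 between the knockouts. Same-numbered WT and DDX6 KO libraries had r of 0.162 and 0.072 for clone 1 and 0.154 and 0.011 for clone 2. WT replicate 3, whose number no DDX6 KO library shares, had 0.105 and 0.159 with DDX6 KO replicates 2 and 4. With DDX6 KO replicates 1 and 3 it had -0.105 and -0.159. For DDX6 KO replicates 2 and 4 the number thus did not mark the closest WT library, which limits this block. No label says what a shared number means. With the block in WT and DGCR8 KO libraries alone 6 passed, in a fit where 2610 of 10944 genes were higher and 2352 lower. Eif4a2 was the further gene, and no other call of the 10 changed. At 59 to 108 counts in WT libraries Gigyf1 is the gene most limited by depth.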

Other observations

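Small nucleolar RNA genes lie in introns of Eif4a1 and Eif4a2 and are counted apart from their hosts. Those with at least 100 counts in all were chosen after their values were seen. Of these 5, 3 passed as lower in DGCR8 KO cells (16.5% of all genes did) and 3 as higher in DDX6 KO cells (17.9% of all genes), while Eif4a1 was lower in both knockouts. Gm24029, in Eif4a1, stood at 48.5, 31.0 and 37.2 CPM in WT, at 13.8, 8.14 and 8.96 in DGCR8 KO and at 83.1, 80, 118 and 120 in DDX6 KO libraries. The genotypes did not overlap (limma log2 -1.86, adjusted p = 0.000114, and 1.40, adjusted p = 1.97e-05). Gm24616, in Eif4a2, had 53.3, 58.6 and 48.6, then 26.0, 9.16 and 6.52, then 138, 120, 136 and 92.4 CPM in the same order, again without overlap (log2 -2.09, adjusted p = 8.21e-05, and 1.17, adjusted p = 0.000233). Gm26447, also in Eif4a2, was lower in DGCR8 KO cells (log2 -1.34) and had 0.03 in DDX6 KO cells (adjusted p = 0.917). Gm22988, in Eif4a1, was higher in DDX6 KO cells (0.75, adjusted p = 0.0116). Gm24201, in Eif4a2, passed in neither knockout, with log2 differences of -1.18 (adjusted p = 0.0607) and -1.01 (0.0641) and a mean of 41.8% of WT in DDX6 KO cells. The kit primes at poly(A), and which part of these RNAs it caught was not tested.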
